A study of Mus musculus with 116 samples.

Results

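The 10 mitochondrially encoded protein genes COX1, COX2, COX3, ATP6, CYTB, ND1, ND2, ND4, ND5 and ND6 were followed across all RNA libraries of a study of 2 mouse cell lines. They were taken by symbol, written in the count tables without the mt- prefix, and are 10 of 40202 listed genes and 10 of the 13 protein genes of the mitochondrial genome. The other 3, ATP8, ND3 and ND4L, entered the total against which each share was taken. By the labels, C10 is an alveolar type II epithelial line and SVEC an endothelial one. Both were untreated and grown by standard culture. The libraries came from nanoSPLITS, which divides the contents of a nanodroplet holding 1 to 10 lysed cells so that RNA and protein can be measured from the same cells. An input series held C10 libraries of 1 cell (n = 8), 3 cells (n = 6) and 10 cells (n = 6). A separate set of single cells comprised 48 libraries of C10 and 48 of SVEC, of which 46 of C10 were used because 2 had fewer than 1000 gene counts. The labels name no separate cultures or batches, so p-values measure the spread between these libraries, and any batch cannot be told apart from the groups.

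The mitochondrial genome of mammals is a small circle that encodes core subunits of respiratory complexes I, III and IV and of ATP synthase, 2 ribosomal RNAs and a set of transfer RNAs. Each strand is transcribed as a long precursor, and excision of the transfer RNAs that lie between most protein genes releases the mRNAs. Because the mRNAs of a strand start from shared precursors, differences between their levels are commonly ascribed to processing, stability and polyadenylation. ND6 is the only protein gene on the opposite strand.

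Some adjacent protein genes have no transfer RNA between them, and their coding sequences overlap. The junctions are shown because bases there belong to both genes. The part of such overlaps in the shares was not tested. In the GENCODE vM21 transcripts ATP8 and ATP6 share 43 bases. The junction is shown 5′ to 3′ with the shared bases, from the ATP6 start codon to the ATP8 stop codon, in capitals.

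ATP8/ATP6: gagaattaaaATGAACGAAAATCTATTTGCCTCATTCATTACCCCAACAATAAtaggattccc

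ATP6 and COX3 share 1 base, ND4L and ND4 share 7, and ND5 and ND6 share 14 on opposite strands. The last 30 bases of the 3 listed genes whose coding sequence ends in a lone T follow, with that T in capitals, beside COX1 with its complete stop codon in capitals. They are shown because these 3 genes gave the 3 largest differences in mean share between the lines in percentage points. COX3 was lower in SVEC, and ND4 and CYTB were higher. By log2 ratio of shares, SVEC over C10, CYTB (0.489) differed less than ND3 (-1.785), ND4L (-1.668) and ATP6 (-1.382), which have complete stop codons. Polyadenylation is known to complete a stop codon that ends in a lone T, and its part in the shares was not tested.

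COX3: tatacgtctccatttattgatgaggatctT

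ND4: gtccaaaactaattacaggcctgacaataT

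CYTB: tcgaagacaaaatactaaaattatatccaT

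COX1: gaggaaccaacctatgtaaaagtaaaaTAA

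Depth differed between the lines. Gene counts per library were 83188 to 5911755 (median 1881704) in C10 single cells, 5122 to 2831907 (median 434945) in SVEC and 430798 to 15385625 in the input series. Counts on mitochondrial mRNA, which set the precision of a share, were 4809 to 208593, 201 to 98848 and 103618 to 1474866. The labelled cell types were poorly marked. Of 8 alveolar type II markers, 6 (Sftpa1, Sftpb, Sftpc, Sftpd, Slc34a2 and Nkx2-1) were at 0 in all 46 C10 single cells. Of 5 epithelial markers, Cdh1 had counts in 24 of these cells, Krt18 in 3, Epcam and Krt19 in 1 each and Krt8 in 0. Of 12 endothelial markers none was detected in as many as 50% of SVEC libraries, and Kdr, Tie1, Vwf, Emcn, Cldn5 and Sox17 were at 0 in all 48. Of 7 fibroblast markers 3 (Col1a1, Col3a1 and Dcn) were detected in at least 50% of libraries of both lines and Lum in none, with a summed level of 476 to 15400 CPM (counts scaled to the same library total, median 2390) in C10 and 0 to 11300 CPM (median 1250) in SVEC. Their part in the results was not tested, and the lines are called by name below.

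The 10 genes made up 98.6% ± 0.539 (SD, n = 46) of mitochondrial mRNA counts in C10 single cells and 99.4% ± 0.495 (n = 48) in SVEC. The composition of that mRNA differed between the lines. COX3 and ATP6 took a larger share in C10, ND4 and CYTB a larger share in SVEC, and the remaining differences were smaller. When mean shares were compared by permutation (two-sided), 9 of the 10 had p under 0.05, 4 higher in C10 and 5 higher in SVEC. Shares sum to 100%, so they move against each other. In all, 50 such tests were made over the 10 genes and 5 comparisons, p-values are unadjusted, and 1e-05 is the smallest that 100000 resamples give.

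**Figure D1:**
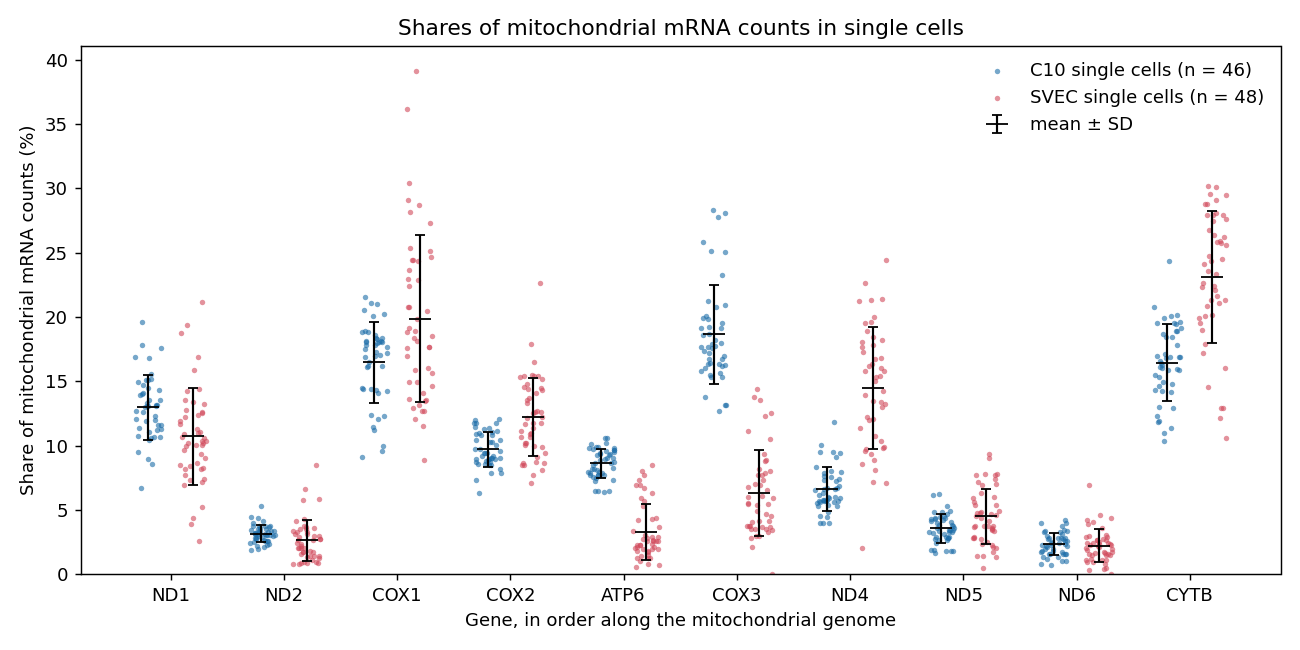
Share of mitochondrial mRNA counts (%) of the 10 genes, in order along the mitochondrial genome, in C10 (blue, n = 46) and SVEC (red, n = 48) single cells. Points are libraries and bars are mean ± SD. COX3 and ATP6 points of SVEC lie mostly below those of C10, and ND4 points of SVEC mostly above.

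Among the subunits of complex IV, the cytochrome c oxidase, COX3 differed most. COX3 encodes a structural core subunit. Its share ran from 12.7% (median 17.7%) to 28.3% in C10 single cells and from 0% (median 5.50%) to 14.4% in SVEC. Of the 48 SVEC libraries 45 lay below the lowest C10 library, and 42 of 46 C10 libraries lay above the highest SVEC library, so the groups overlapped in few cells. The means were 18.7% ± 3.85 (SD, n = 46) and 6.30% ± 3.33 (n = 48), a ratio of 2.96 (permutation p = 1e-05). COX3 was not counted in 1 SVEC library, whose 201 mitochondrial mRNA counts allow a share of up to 1.49%. The 45 SVEC libraries also lay below the lowest of all 66 C10 libraries, input series included.

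The other complex IV subunits went the opposite way. COX1, the catalytic subunit that reduces oxygen, had a share of 16.5% ± 3.15 in C10 (9.14% to 21.6%) and 19.9% ± 6.49 in SVEC (8.90% to 39.1%; permutation p = 0.00162). Here 17 of 48 SVEC libraries exceeded the highest C10 library and the rest overlapped. COX2, the subunit that takes electrons from cytochrome c, had 9.73% ± 1.35 in C10 and 12.2% ± 3.04 in SVEC (permutation p = 2e-05), with 24 SVEC libraries above the highest C10 value of 12.1%. Summed over the 3 genes, complex IV held 44.9% ± 2.95 of mitochondrial mRNA in C10 and 38.4% ± 6.85 in SVEC.

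ATP6 encodes the subunit of ATP synthase that forms the proton channel. Its share ran from 6.40% (median 8.70%) to 10.6% in C10 single cells and from 0.554% (median 2.57%) to 8.47% in SVEC. Of the SVEC libraries 41 lay below the lowest C10 library, and 26 C10 libraries lay above the highest SVEC library. The means were 8.63% ± 1.13 (n = 46) and 3.31% ± 2.17 (n = 48), a ratio of 2.61 (permutation p = 1e-05). ATP8, whose reading frame overlaps ATP6 at the junction printed above, did not follow it, with 0.203% ± 0.0487 in C10 and 0.261% ± 0.203 in SVEC (permutation p = 0.0216). ATP8 shares ran from 0%, in 2 libraries, to 1.49% in SVEC and from 0.0997% to 0.350% in C10. Of the SVEC libraries 5 lay above the highest C10 library and 3 below the lowest, at few ATP8 counts per SVEC library (0 to 219). Reads within the 43 shared bases cannot be assigned to either gene from the deposited counts.

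CYTB encodes cytochrome b, the only subunit of complex III made in mitochondria. Its share ran from 10.4% (median 16.5%) to 24.3% in C10 single cells and from 10.6% (median 23.9%) to 30.2% in SVEC. The upper part of the SVEC range lay outside that of C10, with 23 SVEC libraries above the highest C10 library. The means were 16.5% ± 2.97 and 23.1% ± 5.12 (permutation p = 1e-05).

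The complex I genes split. ND4, one of the antiporter-like subunits that move protons, ran from 3.95% (median 6.10%) to 11.9% in C10 single cells and from 2.01% (median 15.2%) to 24.4% in SVEC. Of the SVEC libraries 34 lay above the highest C10 library and 1 below the lowest. The means were 6.61% ± 1.71 and 14.5% ± 4.74, a ratio of SVEC to C10 of 2.195 (permutation p = 1e-05).

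ND1, which lies where the membrane arm meets the quinone site, went the other way, with a share of 13.0% ± 2.53 in C10 and 10.7% ± 3.76 in SVEC (permutation p = 0.00082). ND2 had 3.16% ± 0.685 and 2.65% ± 1.60 (permutation p = 0.0473), and 18 SVEC libraries lay below the lowest C10 library while 4 lay above the highest. ND5 had 3.56% ± 1.10 and 4.49% ± 2.17 (permutation p = 0.0103). ND2 and ND5 are, like ND4, antiporter-like subunits, so members of that structural kind did not share a direction. The calls for ND1 and ND2 were lost on centred log ratios (permutation p = 0.217 and 0.0618), and ND2 was also lost after thinning each library to 1000 mitochondrial mRNA counts (permutation p = 0.0623).

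ND6, the gene of the opposite strand, had a share of 2.34% ± 0.881 in C10 and 2.21% ± 1.28 in SVEC, a difference inside the spread (permutation p = 0.56). The strand setting of the counting is not given in the sources used here, so reads of ND6 and of RNA from the strand opposite to it cannot be told apart. All complex I genes together held 29.8% ± 2.78 of mitochondrial mRNA in C10 and 34.9% ± 5.64 in SVEC.

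The 4 genes with the lowest SVEC to C10 ratio of shares lay side by side. From ATP6 through COX3, ND3 and ND4L the log2 ratio of mean shares, SVEC over C10, was -1.38 (SE 0.139), -1.57 (SE 0.118), -1.79 (SE 0.353) and -1.67 (SE 0.367). The next gene, ND4, which shares 7 bases with ND4L, was at 1.13 (SE 0.0874). ND3 had a share of 0.994% ± 0.518 in C10 and 0.288% ± 0.465 in SVEC, and ND4L 0.179% ± 0.0848 and 0.0564% ± 0.0957, each with permutation p = 1e-05. Both were near the floor in SVEC. ND3 was at 0 in 15 of 48 SVEC libraries and ND4L in 22, with at most 204 and 45 counts per library. Summed, these 4 genes ran from 21.4% (median 27.2%) to 40.3% in C10 single cells and from 1.49% (median 8.79%) to 20.85% in SVEC, so every C10 single cell lay above every SVEC library. This grouping was made after the values were seen and was given no test.

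**Figure D2:**
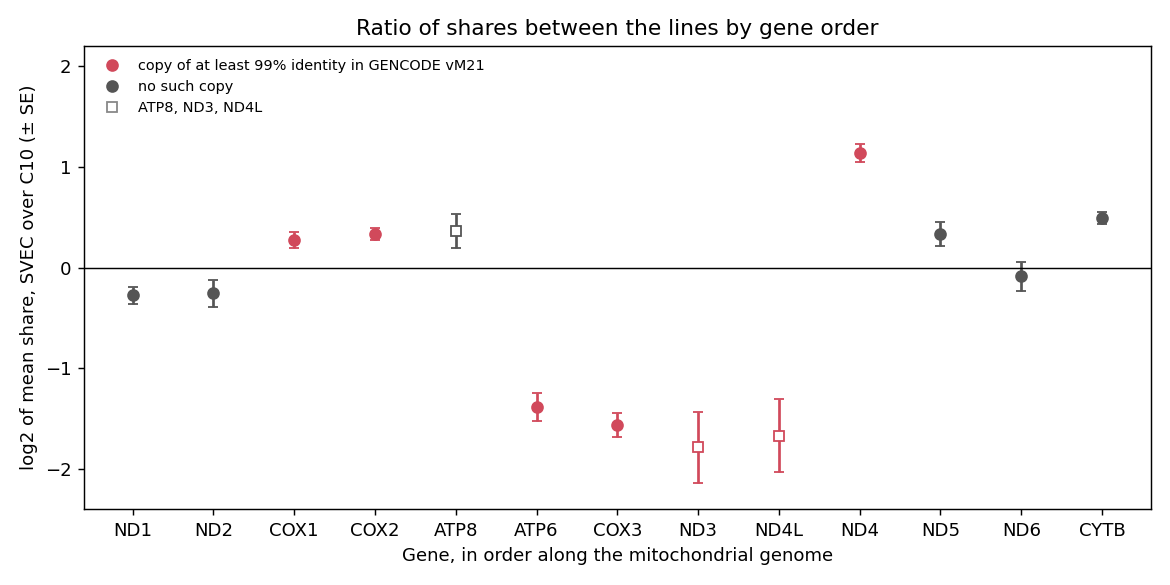
Log2 of the ratio of mean shares, SVEC over C10 single cells, for the 13 mitochondrial protein genes in genome order, with its SE (46 and 48 libraries). ATP6, COX3, ND3 and ND4L lie between -1.38 and -1.79 and ND4 at 1.13; red marks genes with a copy of at least 99% identity among the GENCODE vM21 transcripts.

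Nuclear copies of mitochondrial DNA can take part of a gene's reads, depending on how reads with several matches are treated. A BLAST search of the 13 genes against the GENCODE vM21 transcripts found copies of at least 99% identity for 5 of the 10 listed genes. The whole of COX2, ATP6 and COX3, except their last 1 to 3 bases, was matched at 100% by Gm28661, Gm10925 and Gm28437. Part of COX1, its last 483 bases, was matched by Gm29216 with 1 mismatch, and the first 876 of the 1378 bases of ND4 by Gm28439 at 100%. ND3 and ND4L also have such copies (Gm28438 and Gm10222), and ND1, ND2, ND5, ND6 and CYTB have none.

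None of the 17 copies found is a symbol of the count tables, and the counter for reads aligned to more than 1 place is 0 in all 116 libraries. Genes with such a copy moved in both directions between the lines: COX3 and ATP6 had lower shares in SVEC, COX1, COX2 and ND4 higher ones. Among the 5 listed genes without such a copy, taken as their own total, ND1 was 33.8% ± 6.52 in C10 and 24.95% ± 8.66 in SVEC, and CYTB 42.6% ± 6.32 and 53.3% ± 8.73, each with permutation p = 1e-05. On that total ND2 was 8.26% ± 1.91 and 6.23% ± 3.84 (permutation p = 0.00162), and the p-values of ND5 and ND6 were 0.14 and 0.0733. How reads common to a gene and its copy were treated is not given in the sources used here. Its part in the shares of COX1, COX2, COX3, ATP6, ND3, ND4L and ND4 was not tested.

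The order of COX3 and ND4 within a library differed between the lines. In none of the 66 C10 libraries did ND4 have more counts than COX3, and in 41 of 48 SVEC libraries it did. The log2 ratio of ND4 to COX3 counts ran from -2.56 (median -1.53) to -0.388 in C10 single cells. In SVEC it ran from -1.75 (median 1.42) to 6.44, so 7 SVEC cells kept the C10 order. The 6.44 belongs to the SVEC library with 0 COX3 counts among 201 mitochondrial mRNA counts. It rests on 0.5 added to the counts and is not a measured ratio. CYTB had more counts than COX3 in 47 of 48 SVEC libraries and in 17 of 46 C10 single cells. Both pairs were chosen after their values were seen and are descriptions.

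**Figure D3:**
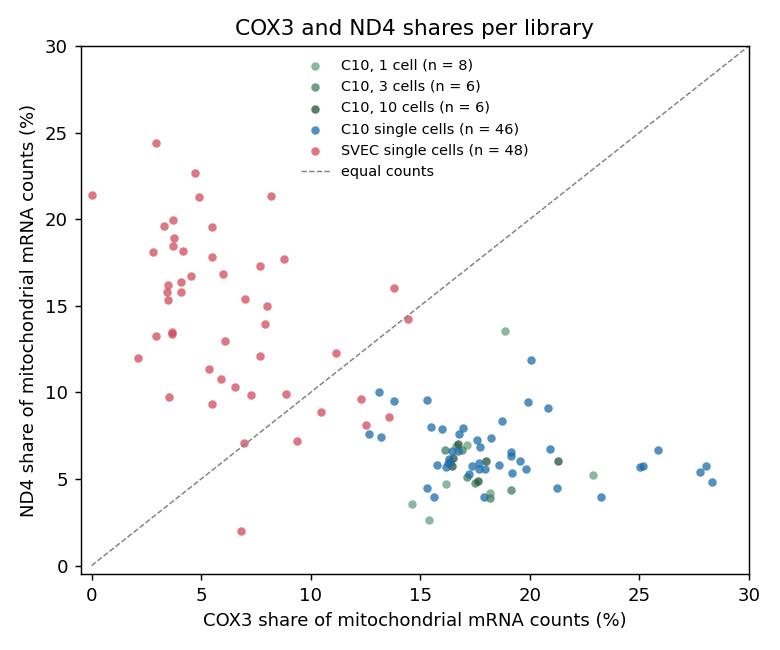
COX3 share against ND4 share of mitochondrial mRNA counts (%), 1 point per library, for all 5 library groups; the dashed line marks equal counts. All 66 C10 libraries lie below the line, 41 of 48 SVEC libraries above it, and 3 SVEC libraries reach a COX3 share above the lowest C10 value of 12.7%.

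The spread of the shares between cells also differed. In C10 single cells the coefficient of variation (CV, SD over mean) of a share ran from 13.1% for ATP6 and 13.9% for COX2 to 37.6% for ND6. In SVEC it ran from 22.2% for CYTB to 65.5% for ATP6. ATP6 thus had the lowest CV of the 10 in C10 and the highest in SVEC. Without replicate 18 of the C10 single cells, left out after seeing the data, COX2 was lowest in C10 (12.9%), below ATP6 (13.3%). Binomial counting error was far smaller than this spread: the SD of the share was 8.35 (ND2) to 21.1 (COX3) times the counting SD in C10, and 4.86 (ND6) to 9.09 (COX1) times in SVEC. Reads carry no molecular identifiers, so PCR copies count as reads and such error covers counting only.

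The absolute deviation of each library's share from its group median was larger in SVEC for 7 of 10 genes by a two-sided permutation test. ND4 had a mean deviation of 1.28 percentage points in C10 and 3.87 in SVEC (permutation p = 1e-05), COX1 2.38 and 5.05 (permutation p = 8e-05), and COX2 1.11 and 2.41 (permutation p = 2e-05). ND2, ND5, CYTB and ATP6 also passed, with permutation p of 4e-05, 0.0001, 0.00063 and 0.016. COX3 had about the same deviation in points, 2.75 in C10 and 2.57 in SVEC (permutation p = 0.732), although its SVEC mean was lower, and ND1 and ND6 did not pass (permutation p = 0.0707 and 0.15).

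Depth was not the same on both sides, so the libraries were thinned to 1000 mitochondrial mRNA counts, which kept 46 C10 and 45 SVEC libraries. Of the 7 genes 6 still had a wider spread in SVEC, and ATP6 did not (1.21 and 1.60 points, permutation p = 0.129). Taken relative to the median share, 7 genes again passed, now with COX3 (15.55% of the median in C10 and 46.7% in SVEC, permutation p = 1e-05) and ND1 but without CYTB and ND4 (permutation p = 0.203 and 0.263).

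**Figure D4:**
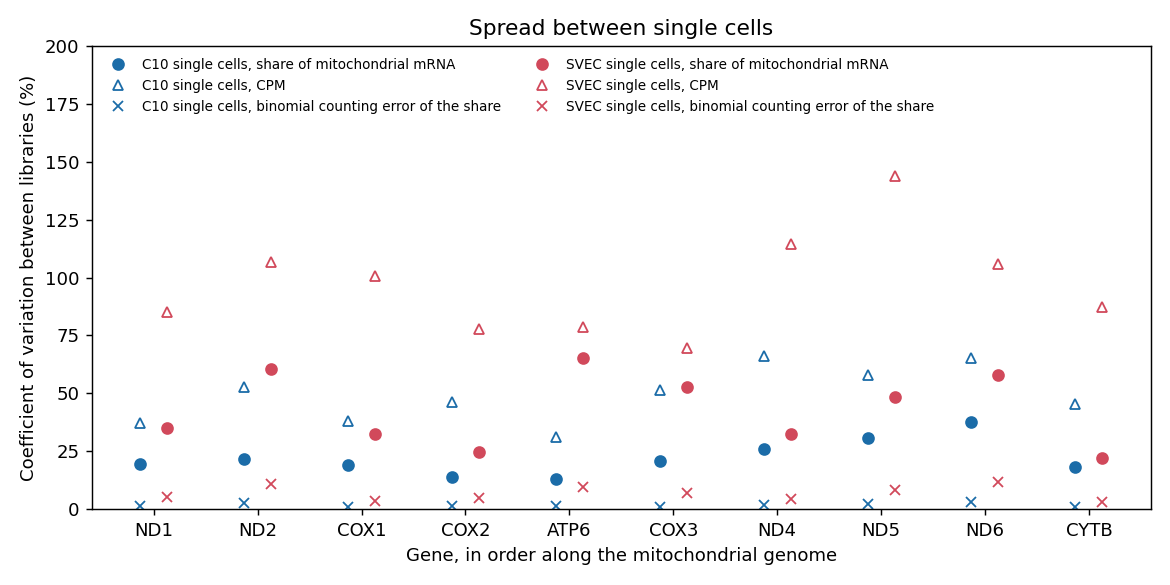
Coefficient of variation (%) between single-cell libraries of each gene's share of mitochondrial mRNA (filled circles), of its CPM (open triangles) and of binomial counting error of the share (crosses), in C10 (blue, n = 46) and SVEC (red, n = 48). All libraries are included, with replicate 24 of C10. The CV of the share is 13.1% to 37.6% in C10 and 22.2% to 65.5% in SVEC, with counting error below it for every gene.

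CPM also carries the cell's total level of mitochondrial RNA, and in C10 its spread rested on 1 library. Replicate 24 of the C10 single cells had 16.8% of its gene counts on the 13 mitochondrial mRNAs, and the other 45 had 2.77% to 7.0%. The median CV of CPM over the 10 genes was 48.7% in C10 single cells with it and 28.5% without it, left out after seeing the data. For nuclear genes with a mean CPM at or above the lowest of the 10, the median was 38.9% (86 genes) with it and 37.6% (100 genes) without it, so the median of the 10 lay above that of these nuclear genes with the library and below it without the library. Of the 10 genes, 3 were under the nuclear median with it and 7 without it. In SVEC the values were 94.2% and 64.8% (132 nuclear genes), and 76.6% and 64.0% without replicate 48, which lowered the first value most.

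ATP6 had the lowest CV of CPM in C10 with replicate 24 (31.1%) and without it (20.4%). The highest was that of ND4 with it (66.3%, and 43.6% without) and that of ND6 without it (50.6%). In SVEC COX3 was lowest (69.6%) and ND5 highest (143.9%). Together the 13 genes took 4.93% ± 2.04 of all gene counts in C10 single cells, or 4.66% ± 0.992 without replicate 24, and 3.93% ± 3.50 in SVEC (0.984% to 19.8%). Of the 48 SVEC libraries, 18 lay below the lowest C10 single cell and 2 above the highest C10 single cell other than replicate 24. The 2 mitochondrial ribosomal RNAs took 2.54% ± 1.85 and 0.916% ± 1.34.

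Levels were compared between genes per kilobase of coding length. In C10 single cells COX3 was highest at 11880 ± 6100 CPM per kb, followed by CYTB (7105), COX2 (7052), ND1 (6540), ATP6 (6117), COX1 (5166), ND4 (2458), ND6 (2290), ND2 (1496) and ND5 (983.5). Neighbours in this order differed beyond their spread, with a mean log2 ratio within libraries above its SD, for COX3 over CYTB (43 of 46 libraries), COX1 over ND4 (46 of 46) and ND2 over ND5 (39 of 46). The 6 highest genes therefore stood apart from the 4 others, all of complex I.

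In SVEC the order was CYTB (8127 ± 7110 CPM per kb), COX2 (6847), COX1 (4993), ND4 (4392), ND1 (4293), COX3 (2871), ATP6 (1742), ND6 (1664), ND5 (1033) and ND2 (960.6). No pair of neighbours there differed beyond its spread. COX3 stood in the first place in C10 and in the sixth in SVEC, and ND4 in the seventh and the fourth. ND2 and ND5 held the last 2 places in both lines.

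Across cells the levels of the 10 genes were positively correlated. Pearson's r of log2(CPM + 1) was positive for all 45 pairs in both lines, from 0.383 (median 0.616) to 0.85 in C10 (n = 46) and from 0.16 (median 0.548) to 0.875 in SVEC (n = 48). Without replicate 24 the C10 range was 0.104 (median 0.445) to 0.775, with all 45 pairs still positive. The points share the library total as denominator and, in part, depth. In shares, the strongest opposition in C10 was that of COX1 and COX3 (r = -0.771), 2 subunits of the same complex, followed by COX3 and CYTB (r = -0.578). In SVEC it was ATP6 and ND4 (r = -0.53), followed by ND1 and ND6 (r = -0.476), COX1 and CYTB (r = -0.465), and COX3 and ND4 (r = -0.437). By Spearman's rho ND1 and ND6 were strongest in SVEC (-0.566), ahead of ATP6 and ND4 (-0.469). In C10 the 2 pairs were then close, COX1 and COX3 at -0.577 and COX3 and CYTB at -0.554.

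ATP6 and COX3, which are adjacent and share 1 base, had r = 0.484 in shares in SVEC but 0.162 in C10. ND5 and ND6, whose ends overlap on opposite strands, had r = 0.456 in C10 and 0.535 in SVEC. With log10 mitochondrial mRNA counts, the share of COX3 had r = -0.629 and Spearman's rho = -0.294 in C10, and r = -0.269 and rho = -0.436 in SVEC. The share of COX1 had r = 0.571 and rho = 0.331 in C10, and r = 0.0489 and rho = 0.172 in SVEC. For COX3, r was thus farther from 0 in C10 and rho in SVEC. These correlations are descriptions without a test, the shares have a common denominator, and the part of depth in them was not tested.

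Differential expression per gene was taken with edgeR's quasi-likelihood test on the counts with TMM factors over 9303 genes, with Benjamini-Hochberg adjusted p under 0.05 as the call. Of the 10 genes 8 were higher in C10 single cells than in SVEC and none lower, where 14.4% of all genes tested were called higher, 4.48% lower and 18.9% in all. The median log2 fold change was 0.90 for the 10 and 0.35 for all genes, and scaling by library totals alone brought that of all genes to 0.014. With library totals alone 5 of the 10 were called, COX3, ATP6, ND1 and ND2 higher and ND4 lower, while calls over all genes went from 1337 higher of 1754 to 932 higher of 1588.

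COX3 ran from 4658 CPM (median 8346) to 35017 in C10 and from 0 (median 1916) to 8239 in SVEC, overlapping between those bounds. Its log2 fold change was 2.63 (SE 0.186, edgeR adjusted p = 8.21e-23), and 2.05 with library totals alone. ATP6 ran from 1782 CPM (median 3991) to 10869 in C10 and from 63.2 (median 1008.5) to 3930 in SVEC, with a log2 fold change of 2.35 (SE 0.187, edgeR adjusted p = 8.27e-20).

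Among the rest, ND2 (1.31), ND1 (1.19), ND6 (1.11), COX1 (0.68), COX2 (0.65) and ND5 (0.63) were called higher in C10 on the log2 scale, with edgeR adjusted p from 3.14e-08 for ND2 and 1.73e-09 for ND1 to 0.0178 for ND5. With library totals alone ND6, COX1 and COX2 stayed positive but were not called and ND5 turned to -0.07. CYTB (0.40, SE 0.168, edgeR adjusted p = 0.0872) and ND4 (-0.20, SE 0.197, adjusted p = 0.571) were not called, and with library totals alone CYTB was at -0.19 (edgeR adjusted p = 0.505) and ND4 at -0.84 (edgeR adjusted p = 0.000899). ND4 turned to 0.11 when libraries under 100000 counts were left out. The directions of CYTB, ND4 and ND5 in CPM therefore depended on the scaling or the libraries, whereas those of COX3, ATP6, ND1, ND2 and ND6 were positive under each of these.

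The input series asked whether the values depend on the number of cells. In such libraries more cells with a transcript and more RNA per cell cannot be told apart. COX3 had 17.5% ± 2.58 (n = 8), 17.5% ± 1.055 (n = 6) and 17.8% ± 1.84 (n = 6), CYTB 16.4% ± 2.23, 15.2% ± 3.06 and 14.4% ± 0.783, and COX1 17.8% ± 1.81, 18.1% ± 1.805 and 16.5% ± 1.90.

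By exact two-sided permutation tests, the only one of 10 genes with p under 0.05 between 10 cells and 1 cell was ND2, with 3.27% (median 3.72%) to 5.02% at 10 cells and 2.28% (median 3.11%) to 4.35% at 1 cell (p = 0.0446). These ranges overlap, and without replicate 1 of each group the exact permutation p was 0.0581. None of the 10 passed between 3 cells and 1 cell (smallest exact permutation p = 0.175) or between 10 and 3 cells (0.0671).

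Only for ND6 and ND4 did the spread of the share fall at each step to libraries of more cells. ND6, the most variable, had a CV of 80.1% at 1 cell, 29.7% at 3 cells and 17.8% at 10 cells, and ND4 57.2%, 22.3% and 11.6%. ND5 had 59.7%, 6.52% and 15.0%. Without replicate 1 of the 1-cell libraries, left out after seeing the data, the 1-cell values were 64.8% for ND6, 33.3% for ND4 and 45.2% for ND5. ND6 was at 0.0615% in replicate 5 of the 1-cell libraries and 4.15% in replicate 1. ND1 showed no such order, with 3.93%, 13.9% and 5.53%, and neither did COX1, COX2, COX3, ATP6, CYTB and ND2. COX1, for example, had 10.2%, 10.0% and 11.5%, and CYTB 13.6%, 20.1% and 5.43%. These CVs are descriptions over 6 to 8 libraries and were not tested.

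ATP6 stood apart between the 2 C10 sets. It ran from 4.63% (median 12.15%) to 15.9% at 1 cell, from 9.14% (median 12.3%) to 13.3% at 3 cells and from 7.91% (median 12.4%) to 12.6% at 10 cells, against 6.40% to 10.6% in the C10 single cells. In each input group the lowest library was the one numbered 1. All 17 other input libraries lay above the highest C10 single cell, which was noticed after the values were seen. The tested difference, C10 single cells against 1 cell, was -3.10 percentage points (8.63% ± 1.13, n = 46, and 11.7% ± 3.23, n = 8; permutation p = 1e-05). ND6 was higher in the single cells (2.34% ± 0.881 and 1.58% ± 1.27, permutation p = 0.0392), and no other of the 10 passed. After thinning to 1000 mitochondrial mRNA counts per library ATP6 differed by -3.37 points (permutation p = 0.00011) and ND6 no longer passed (permutation p = 0.0805). Both sets are labelled as the same line, and the sets cannot be told apart from any batch they were made in.

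**Figure D5:**
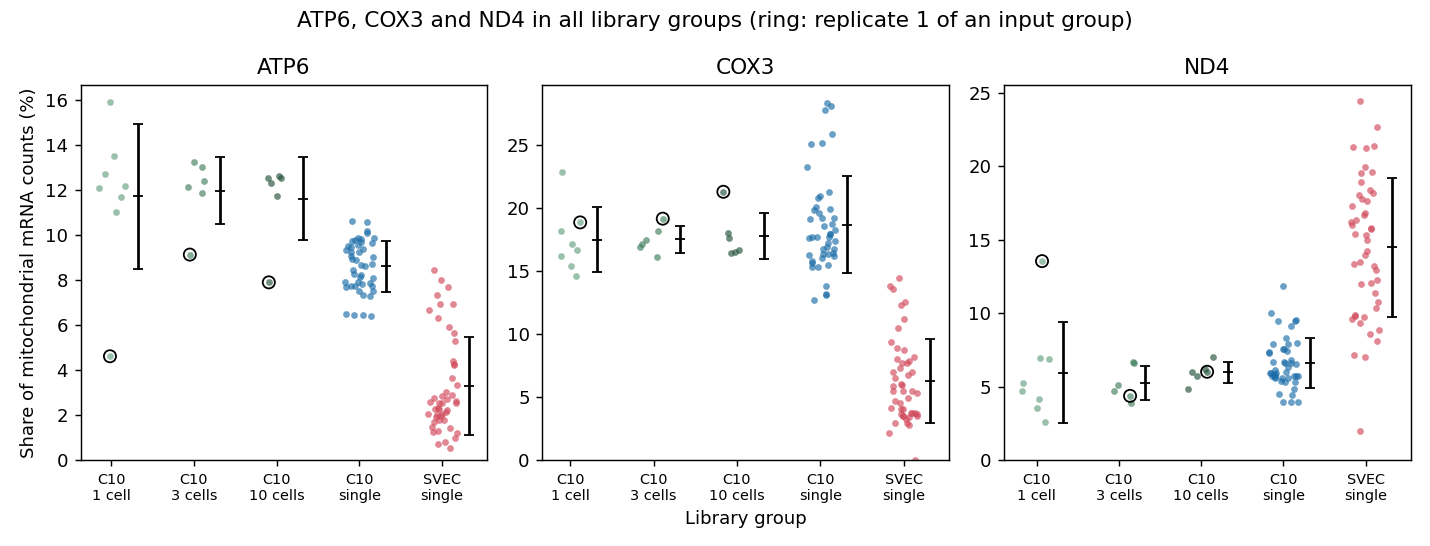
Share of mitochondrial mRNA counts (%) of ATP6, COX3 and ND4 in the 5 library groups (n = 8, 6, 6, 46 and 48); points are libraries, bars mean ± SD, and rings mark replicate 1 of each input group. For ATP6 the ringed libraries, at 4.63%, 9.14% and 7.91%, are the lowest of their groups, and the 17 other input libraries lie above the highest C10 single cell at 10.6%.

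In CPM none of the 10 was called between 10 cells and 1 cell, where 10.6% of 13645 genes were called higher and 0.0879% lower, 10.7% in all. All 10 had a negative log2 fold change, from -1.22 for CYTB to -0.55 for ND6. Of the 10, 6 had an unadjusted edgeR p under 0.05, as had 2581 of all 13645 genes. DESeq2 called 9 of the 10 lower, and it called 8.11% of all genes, 976 of 1107 of them higher. The median log2 fold change of all genes was 0.359 with edgeR and -0.546 with DESeq2. Between 3 cells and 1 cell edgeR called 0 of the 10 (background 6.07% higher, 0.278% lower and 6.35% in all). There 4 of the 10 had an unadjusted edgeR p under 0.05, as had 2417 of all genes. DESeq2 called 7 of the 10 lower. Of all genes it called 8.74%, 947 of 1193 of them higher, with a median log2 fold change of -0.399. Between 10 and 3 cells edgeR called 0 of the 10 and 0% of all genes. No member had an unadjusted edgeR p under 0.05 there, against 1346 of all genes. DESeq2 called none of the 10 and 1.59% of all genes.

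Against the 1-cell libraries, C10 single cells had 9 of the 10 genes called lower (all but ND6), where 11.4% of 12303 genes were called lower and 3.61% higher, 15.1% in all. The log2 fold changes of the 9 ran from -1.90 for ATP6 (SE 0.221, edgeR adjusted p = 4.85e-10) to -1.29 for COX2 (SE 0.269, edgeR adjusted p = 0.00025). These calls rested on 2 of the 8 libraries. Replicates 1 and 14 of the 1-cell group had 24.1% and 18.8% of their counts on mitochondrial mRNA, and the other 6 had 4.43% to 6.76%. COX3, for example, was at 45337 and 32204 CPM in these 2 and between 6481 and 12498 in the others. Replicate 1 also had 538 genes detected and 95.1% of its reads not aligned. Without both, an alternative chosen after seeing the data, 1 of the 10, ATP6, was called lower (log2 fold change -0.94, edgeR adjusted p = 8.41e-05). In that setting 10.7% of all genes were called, 347 of 1297 of them higher. The difference in mitochondrial mRNA went from -4.52 to -0.53 percentage points of all counts.

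The nuclear genes whose level followed the summed CPM of the 10 most closely, among genes detected in at least 90% of a line's libraries, were led by Myo3a in both lines. Myo3a encodes a class III myosin known from sensory hair cells and photoreceptors. Spearman's rho with the sum was 0.815 in C10 (n = 46, 1806 genes ranked, median rho -0.0391) and 0.862 in SVEC (n = 48, 435 genes ranked, median 0.126). Myo3a had counts in every one of these libraries, from 117 CPM (median 240.0) to 902 in C10 and from 64.2 CPM (median 265) to 1440 in SVEC.

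The next genes were far behind: Pfdn5 (0.541), Pdcd6 (0.505), Plekhg7 (0.486) and Cox6b1 (0.48) in C10, and Ndufa2 (0.551), Dynlt1c (0.551), Dynlt1f (0.507) and Dynlt1a (0.497) in SVEC, the last 3 near-identical paralogs whose counts are uncertain. In GENCODE vM21 an intron of Myo3a holds, on the opposite strand, the pseudogenes Gm13339, Gm13340 and Gm13341, which match ND2 over 510 bases at 96.7%, COX1 over all 1545 bases at 97.6% and COX2 over all 684 bases at 95.9%. None of the 3 is a symbol of the count tables, and the part of reads from these 3 genes in the Myo3a counts was not tested. The likeness is a description, and the points share the library total.

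Of nuclear genes for the other subunits of the same complexes, 20 of 72 were called higher in C10 single cells than in SVEC by edgeR and none lower, with a background of 14.4% and 4.48%. They were 5 of 36 of complex I, 2 of 9 of complex III, 8 of 12 of complex IV and 5 of 15 of ATP synthase. The median log2 fold change of the 72 was 0.417, close to the 0.347 of all genes tested. The calls for these nuclear genes are given with TMM factors only. Of 29 tested genes for mitochondrial transcription and the processing and stability of its RNA 3 were higher and none lower, and of 7 for upkeep of mitochondrial DNA 1 was higher. Among these, Lrpprc, whose product stabilises mitochondrial mRNAs, had a log2 fold change of 2.86 (SE 0.821, edgeR adjusted p = 0.00629) and counts in 26 of 46 C10 and 11 of 48 SVEC libraries. Rexo2, an RNA exonuclease of mitochondria, was at 275 ± 161 CPM in C10 and 77.8 ± 124 in SVEC (log2 fold change 2.01, SE 0.416, edgeR adjusted p = 8.25e-05). Rrm2b, a ribonucleotide reductase subunit, had 0.86, and the subunit genes Ndufb2, Uqcrq and Cox7a2l had 1.45, 1.23 and 1.67. These 4 log2 fold changes had edgeR adjusted p of 0.0274, 0.000822, 0.000241 and 0.00249.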

How the data were processed

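Libraries were SMART-Seq v4 Plus full-length cDNA, read as single ends of 150 bases, per the labels' protocols. The authors deposited raw read counts per gene symbol, 1 table for each of 116 libraries, with 5 closing counters for unassigned reads, which were kept out of all totals. FastQC, STAR and HTSeq are named in the submitters' processing notes; their settings, the genome build, annotation and strand are not given in the sources used here, so no coordinates are printed. Libraries were grouped by title, and the members, gene lists and tests were chosen with earlier results of these data known.

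Shares were computed as percent of the counts on the 13 mitochondrial protein genes, in libraries with at least 1000 gene counts and 100 such counts (114 of 116). Share means and absolute deviations were compared by permutation tests, exact for the input series and otherwise with 100000 resamples. Genes were tested with edgeR 4.0.16 in R 4.3.3 (TMM factors, Benjamini-Hochberg over all genes tested, threshold 0.05), among genes detected in at least 25% (single cells) or 50% (input series) of a group. Alternatives were limma 3.58.1 on log2(CPM + 1), DESeq2 1.42.0, other library sizes and filters, thinning, centred log ratios (0.5 added to counts), other denominators, a replicate block and left-out libraries. The tests were tested on simulated data. Sequences come from GENCODE vM21 transcripts and were searched with BLAST 2.17.0. The closest pair of libraries in a group differed by a chi-square of at least 55.8 per degree of freedom, so no library was treated as a copy of another.

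All 10 members were named, with ATP8, ND3 and ND4L. From the lists of nuclear genes for mitochondrial RNA and DNA, up to 5 called genes in each direction with the largest fold and detected in at least 50% of the higher line were named, and up to 3 by the same rule from the nuclear subunits. The 5 genes most like the summed members were named in each line. Macrophage markers, also listed, were detected in at least 50% of libraries for 0 of 5 genes in either single-cell line.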

Additional observations from a re-analysis of the deposited data

Results flagged for a closer look

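Of 33 sets of values in the input series, 8 had a library far from the others of its group by a gap test that chance meets in about 1 of 20 sets (1.65 of 33). The sets are not independent: the shares of a library move against each other, so 1 library can be flagged for several genes. Among the 10-cell libraries replicate 1 stood apart for 4 genes: the share of COX1 was 12.7% (others 16.7% to 18.0%), that of COX2 12.9% (8.82% to 10.1%), that of COX3 21.3% (16.4% to 18.0%) and that of ATP6 7.91% (11.7% to 12.6%). The ATP6 share was also low in replicate 1 of the 1-cell libraries, at 4.63% (others 11.0% to 15.9%), and in replicate 1 of the 3-cell libraries, at 9.14% (11.9% to 13.3%). In replicate 1 of the 1-cell libraries the ND4 share was 13.6% (others 2.62% to 6.96%). The ND2 share was 5.02% in replicate 10 of the 10-cell libraries (others 3.27% to 3.84%). Replicate 1 also had the highest share of all counts on mitochondrial mRNA in each input group, 24.1% at 1 cell, 8.67% at 3 cells and 7.59% at 10 cells, and the lowest gene counts, 430798, 6889508 and 8313314. The part of these in the ATP6 shares was not tested.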

How the results depend on the processing

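Depth limits SVEC most, where 3 libraries had fewer than 1000 mitochondrial mRNA counts. The 9 of 10 shares that differed between C10 single cells and SVEC became 7 on centred log ratios, 8 after thinning and 8 with the replicate block, and no direction turned. In CPM the 8 calls for C10 against SVEC became 5 with library totals alone, 5 with genes in at least 90% of a group and 5 with library sizes without mitochondrial genes. Of all genes 18.9% were called in the main setting, and 17.1%, 27.6% and 17.4% in these settings, in that order. With mitochondrial mRNA as library size COX1 was -0.27, COX2 -0.33, CYTB -0.49 and ND5 -0.34. CYTB was -0.19 and ND5 -0.072 with library totals alone, CYTB -0.19 and ND5 -0.11 without mitochondrial genes in the library size, and ND4 0.11 with a minimum of 100000 counts. The cause was not tested.

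For the input series DESeq2 called 9 of the 10 genes between 10 cells and 1 cell and 7 between 3 cells and 1 cell. Of all genes it called 8.11% and 8.74% there. On centred log ratios 3 shares differed between 10 cells and 1 cell, 1 between 3 cells and 1 cell and 1 between 10 and 3 cells. Without replicate 1 of each input group the counts of differing shares were 0, 0 and 1. For C10 single cells against 1 cell the 9 calls became 5 with limma, 4 with genes in at least 90% of a group, 1 with mitochondrial mRNA as library size, 7 without replicate 1 and 1 without replicates 1 and 14. Of all genes 15.1% were called in the main setting, and 9.4%, 6.23%, 10.9%, 11.9% and 10.7% in these settings, in that order. With mitochondrial mRNA as library size the log2 fold changes were COX2 0.14, COX3 0.094, CYTB 0.0082, ND1 0.031, ND2 0.018, ND4 0.15, ND5 0.15 and ND6 0.57. ND6 was 0.36 with limma, 0.16 without replicate 1 and 0.62 without replicates 1 and 14, where ND4 was 0.21. The 2 differing shares became 1 after thinning and 4 without replicate 1. The cause was not tested.

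Replicate numbers showed no pairing of C10 with SVEC single cells. Same-numbered libraries had a mean correlation of deviations of 0.00345, and 1 of 46 correlated best with its own number. In the input series the mean was -0.00629 for 10 cells against 1 cell, 0.0295 for 3 against 1 and 0.0165 for 10 against 3. There 0, 3 and 2 of 6 correlated best with their own number. Whether numbers pair the input libraries was not tested further. With the replicate block the CPM calls were 9 for C10 against SVEC, 0 for each input comparison and 0 for C10 single cells against 1 cell. Of all genes 33.4% were called for C10 against SVEC and 0% for the others. Differing shares with the block were 8, 0, 0, 0 and 1. That 1 was COX3 (4.06 percentage points, exact sign-flip permutation p = 0.0312), which was at 1.18 (permutation p = 0.415) without the block and at -0.0769 log2 units on centred log ratios, while ATP6 (-2.71, p = 0.0859) and ND6 (0.365, p = 0.461) did not pass. The differences in summed mitochondrial mRNA with the block were 1.33 percentage points for C10 against SVEC and -3.05, -3.04, -0.02 and -5.09 for the others. The spread of shares was wider in SVEC for 6 of 10 genes after thinning and for 7 under each other setting.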

Other observations

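The 3 mitochondrial protein genes outside the listed 10 were rare but not constant. ND3, a small membrane subunit of complex I, took 0.878% ± 0.325 of mitochondrial mRNA counts at 1 cell (n = 8), 0.991% ± 0.237 at 3 cells (n = 6) and 1.31% ± 0.235 at 10 cells (n = 6). The difference between 10 cells and 1 cell had an exact permutation p of 0.0196 and that between 10 and 3 cells one of 0.0455, both unadjusted. ND4L, in the same complex, had 0.178% ± 0.153, 0.124% ± 0.0264 and 0.139% ± 0.0317, with the highest library, at 0.555%, in the 1-cell group. ATP8, of ATP synthase, had 0.189% ± 0.0697, 0.184% ± 0.0273 and 0.167% ± 0.0319.

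ND4 and ATP6 also differed in order between the lines: ND4 had more counts than ATP6 in 46 of 48 SVEC libraries and in 6 of 46 C10 single cells. In the input series it did so in 1 of 8 libraries of 1 cell, replicate 1, and in none of 6 of 3 cells or of 10 cells. ND4 exceeded ND1 in 37 of 48 SVEC libraries and 3 of 46 C10 single cells. These pairs were chosen after their values were seen.

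Myo3a, the nuclear gene most like the 10 genes in the single cells, was also present in all 20 input libraries, with a median of 209 CPM at 1 cell, 198 at 3 cells and 190.0 at 10 cells. Its Spearman rho with COX1 was 0.81 over the 8 libraries of 1 cell, 0.943 over the 6 of 3 cells and 0.714 over the 6 of 10 cells. Over 46 C10 and 48 SVEC single cells it was 0.633 and 0.724. With COX3 rho was 0.571, 1.0 and 1.0 over these input groups, and 0.633 and 0.588 over the single cells. The pseudogenes in the Myo3a intron match ND2, COX1 and COX2, and the part of these matches in the correlations was not tested. Correlations of Myo3a with ND2 and COX2 were not taken. The levels of the 10 genes were themselves positively correlated across single cells.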
